A study of Mus musculus with 4 samples.

Results

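The Myc, Mxd and Mlx network is a set of transcription factors that share a basic helix-loop-helix and leucine zipper fold. It was followed here through 10 genes, Myc, Mycn, Mycl, Max, Mxd1, Mxd3, Mxd4, Mxi1, Mnt and Mlx, taken by symbol from a table of 55418 genes and all reported. The choice was made with earlier results of these data known. The libraries were made from mouse E14 ESCs, an embryonic stem cell line whose strain is labelled 12910la. RNA was sequenced from 2 WT cultures and from 2 Pim3-/- clones, in which CRISPR/Cas9 with guide RNAs against a pair of exons had disrupted the serine/threonine kinase gene Pim3. All 4 libraries came from cells grown on gelatin in serum with LIF, the cytokine that holds ESCs undifferentiated. Each Pim3-/- library stands for 1 clone, so the effect of the genotype and differences between clones and cultures cannot be told apart. All 10 members had counts in every library, with a lowest value of 67 counts, and none was removed for low counts.

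MAX is the shared partner of the network. MYC, MYCN and MYCL bind the E-box CACGTG as dimers with MAX and raise the transcription of genes for ribosome production, nucleotide synthesis and the cell cycle. The MXD proteins, MXI1 and MNT compete for MAX and recruit the SIN3 and histone deacetylase corepressor, while MLX, a relative of MAX, pairs with the glucose-responsive factors encoded by Mlxip (MondoA) and Mlxipl (ChREBP) and with some MXD proteins and MNT. In mouse ESCs Myc and Mycn have overlapping roles in self-renewal, and PIM kinases are known to cooperate with MYC in tumors.

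The libraries held 22029427 to 25668307 counts. Counts of Pim3 itself were 4392 and 4953 for WT against 4970 and 4804 for Pim3-/-, a log2 fold change of -0.27 that did not pass (edgeR adjusted p of 0.251) and was 0.19 with library totals. A count over the whole gene does not see the edited site, so it does not check the labels. Pluripotency markers were abundant in all 4 libraries, with summed levels of 10880 and 9829 CPM (counts relative to the library total, scaled by the TMM factors of edgeR) in WT and 7006 and 6662 in Pim3-/- ESCs. Of these 10 markers, Klf4 passed the test as higher and 4 as lower, with Pou5f1 at a log2 fold change of -1.13, Dppa5a at -0.97 and Utf1 at -0.97. The 6 tested of 7 markers of primitive endoderm and all 7 markers of 2-cell-like cells were higher. The former summed to 2.97 and 5.12 CPM in WT against 33.7 and 18.7 in Pim3-/- ESCs, and the latter to 16.4 and 13.4 against 140 and 39.4. Sox7 counts were 3 and 0 for WT, and Foxa2, a defining endoderm marker, had none there and 5 and 7 in the others. For 7 trophoblast markers, of which 5 were tested, the sums were 107 and 109 against 93.6 and 110 CPM. Gata3 (4 and 4 against 28 and 22 counts) and Ascl2 were called higher, at log2 fold changes of 2.28 and 1.47. The other 3 tested genes were not called, and 2 of the 5 had log2 fold changes below 0. The sums were 3.40 to 4.75 CPM for 6 mesoderm, 9.09 to 16.6 CPM for 6 neuroectoderm and 20.3 to 25.5 CPM for 7 fibroblast markers. Of these lists 4, 3 and 2 genes had enough counts to be tested and none of them was called, Zic1, which was not tested, went from no counts in WT to 9 and 10, and Lum was at 0 throughout. The part of these marker changes in the results below was not tested. In bulk RNA, fewer cells of one type and less RNA per cell cannot be told apart.

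The E-box motif also lies in promoters of some genes of the network. RefSeq promoters of GRCm38.p6, running from 250 bases before to 50 bases after a start site, were found for 9 of the 10 members, with 3 for Mxi1 and none for Myc. A CACGTG, which reads alike on both strands, occurred in 4 of these 11 promoters, those of Max, Mlx, Mnt and Mxd4, against 9.66% of 15318 promoters of tested genes and 7.15% of all 32851 promoters. These E-boxes are shown because they are the motif through which MAX dimers bind DNA, in capitals with 12 bases on either side, each on the strand of its gene.
Max, chr12:76962234-76962263, minus strand: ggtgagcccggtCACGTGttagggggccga
Mlx, chr11:101087238-101087267, plus strand: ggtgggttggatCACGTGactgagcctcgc
Mnt, chr11:74830789-74830818, plus strand: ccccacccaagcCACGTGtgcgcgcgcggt
Mxd4, chr5:34187912-34187941, minus strand: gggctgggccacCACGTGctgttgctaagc
The E-box began 3 bases before the start site in Max, 40 bases before it in Mlx, 123 bases before it in Mnt and 219 bases before it in Mxd4. None of the windows touched an exon of the GENCODE annotation. The variant CACGCG, searched on both strands, occurred in 1 member promoter, that of Mycl, and in 16.2% of promoters of tested genes. A match is a sequence in a window and no measure of binding. The 4 E-box genes did not move together: as described below, Mnt rose, Mlx fell, and Max and Mxd4 did not pass the test.

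Of the 10 members, 5 changed at an adjusted p under 0.05 (quasi-likelihood test of edgeR, Benjamini-Hochberg adjusted over 18444 tested genes), where 33.8% of all tested genes passed. Mnt and Mxd1 rose, in a table where 17.6% of genes were called higher, and Mlx, Mycn and Mxd3 fell, where 16.2% were called lower. The median log2 fold change of the members was -0.09, and that of all tested genes was 0.07. In 9 of the 10 members the WT and Pim3-/- values did not overlap, which held for 72.5% of all tested genes. Of these 9, 4 were higher and 5 lower, against 38.3% and 34.2% of all tested genes. None of the 5 calls came with a change of 3-fold or more. TMM scaling matters for these directions, since library totals in its place raised the median of all genes by 0.449, and the signs of Myc and Max turned. With library totals 6594 of the 18444 tested genes were called higher and 1094 lower, the background for the counts under that scaling below.

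**Figure D1:**
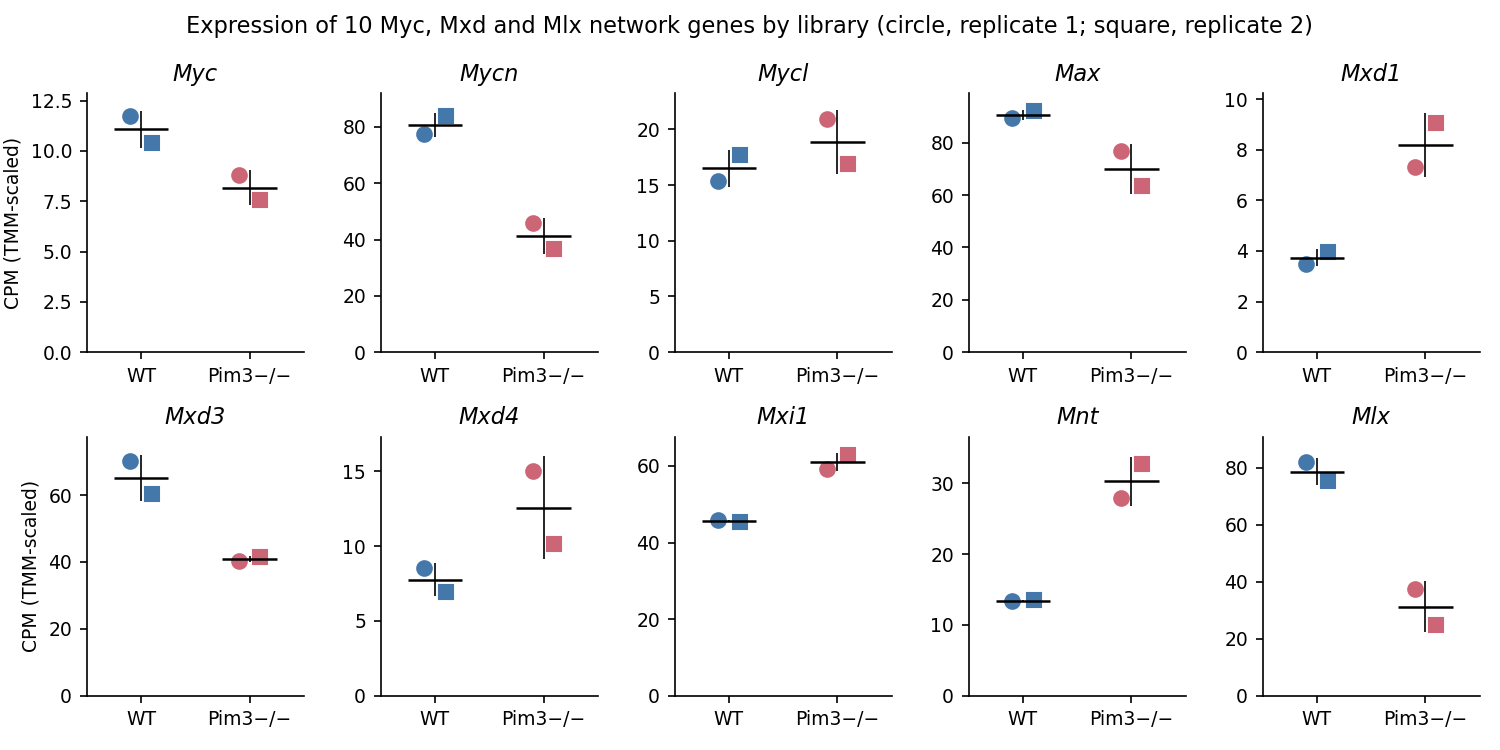
Expression of the 10 members in CPM (TMM-scaled, axis from 0) in WT and Pim3-/- ESCs, with circles for replicate 1, squares for replicate 2, horizontal lines for the mean and vertical lines for the SD of 2 libraries. Mnt and Mxd1 lay higher and Mlx, Mycn and Mxd3 lower in both Pim3-/- libraries, and only Mycl overlapped between the groups.

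Levels were compared between genes as CPM per kb of merged exons. The order depends on that choice of length. Max has 3598 bases of merged exons and a longest transcript of 1942 bases, while Mlx has 1999 and 1965. In WT ESCs Mlx stood highest, at 39.3 CPM per kb ± 2.38 (SD, n = 2). Mxd3 with 27.5, Max with 25.2 and Mycn with 24.5 CPM per kb followed, and the libraries of neighbours among these 3 overlapped. Mxi1 was at 6.69 and Mycl and Myc both at about 4 CPM per kb (4.09 and 4.08), which did not differ beyond their spread. Mnt had 2.90, Mxd4 0.915 and Mxd1 0.528 CPM per kb. In Pim3-/- ESCs the order at the top was Max with 19.5, Mxd3 with 17.3 and Mlx with 15.6 CPM per kb ± 4.44 (SD, n = 2), and Mycn came next with 12.5. The libraries of Mlx overlapped those of Max, those of Mxd3 and those of Mycn. Mnt moved above Mycl and Myc, at 6.56 against 4.68 and 3.01 CPM per kb. Within each Pim3-/- library Mlx, with 18.8 and 12.5 CPM per kb, lay below Max (21.3 and 17.6) and above Mycn (13.9 and 11.1). Mxd3, with 17.0 and 17.5, lay below Mlx in replicate 1 and above it in replicate 2. On merged exon lengths Mlx thus went from the first place to one below Max and not resolved from Mxd3, and Mnt from the eighth to the sixth.

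Mycn, on chromosome 12 from 12936093 to 12941914 (GRCm38), had the highest level of the Myc genes per length in both groups, and it fell in Pim3-/- ESCs. It encodes the MYC paralog best known from neuroblastoma and the early embryo. Mycn had 77.5 and 83.7 CPM in WT and 45.9 and 36.6 CPM in Pim3-/- ESCs. Both Pim3-/- values were below both WT values. The log2 fold change was -0.97 ± 0.18 (SE) and the edgeR adjusted p was 0.00880. With library totals it was -0.52, with an adjusted p of 0.0590 in the same edgeR test. Its call was also lost without WT replicate 1 or WT replicate 2, with edgeR adjusted p-values of 0.0644 and 0.0653.

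Myc, the cellular form of the avian retroviral oncogene, lies on chromosome 15 from 61985391 to 61990374 and had 195 to 236 counts per library. In CPM it was at 11.7 and 10.4 in WT and at 8.79 and 7.56 in Pim3-/- ESCs. The groups did not overlap, but the log2 fold change of -0.44 (95% interval -0.98 to 0.10) did not pass the test, with an edgeR adjusted p of 0.178, and with library totals it was 0.02. Without Pim3-/- replicate 1 it was -0.57. Mycl, on chromosome 4 from 122995652 to 123002485, encodes the paralog with the weakest transforming activity. It had 15.3 and 17.7 CPM in WT and 20.9 and 16.9 CPM in Pim3-/- ESCs. These values overlapped, and the log2 fold change was 0.19 (95% interval -0.29 to 0.67, edgeR adjusted p of 0.490). With library totals Mycl passed, at 0.64 and an edgeR adjusted p of 0.0492.

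Shares within a library do not depend on the scaling between libraries. Of the summed CPM per kb of Myc, Mycn and Mycl, Mycn held 74.4% and 75.6% in WT and 62.3% and 61.5% in Pim3-/- ESCs. Mycl held 12.0% and 13.0% in WT and 23.2% and 23.1% in Pim3-/- ESCs, while Myc held 13.7%, 11.4%, 14.5% and 15.4% in the same order of libraries. Mycn thus lost 13.0 percentage points and Mycl gained 10.6. The ratio of Mycn to Mycl was 6.19 and 5.80 in WT against 2.69 and 2.66 in Pim3-/- ESCs, and the groups were far apart beside the spread within each. With 2 libraries per group the smallest p of an exact permutation test is 0.333, and none is given for shares and ratios. The summed level of the 3 genes was 31.6 and 33.6 CPM per kb in WT and 22.3 and 18.1 CPM per kb in Pim3-/- ESCs.

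**Figure D2:**
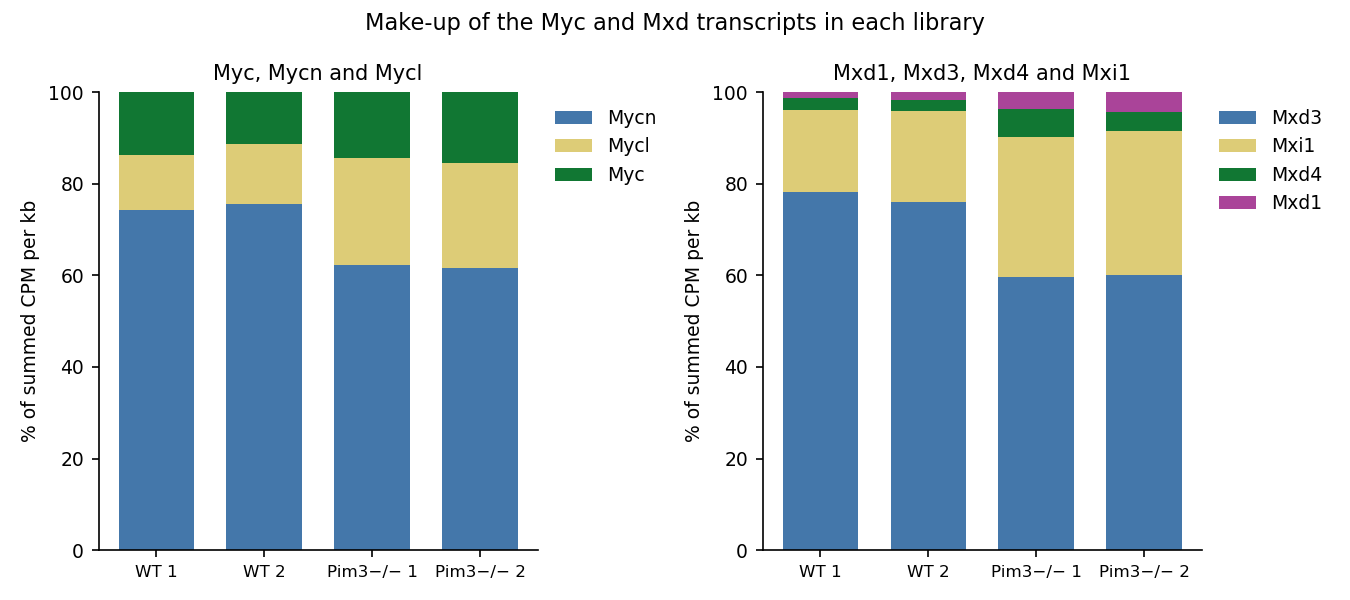
Share of each gene in the summed CPM per kb of the Myc genes (left) and of the Mxd genes with Mxi1 (right), as stacked bars for each of the 4 libraries. The share of Mycn went from 74.4% and 75.6% to 62.3% and 61.5%, and that of Mxd3 from 78.3% and 76.0% to 59.7% and 60.0%.

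Max, the obligate partner, lies on chromosome 12 from 76937269 to 76962201. It had 89.3 and 92.0 CPM in WT and 76.7 and 63.3 CPM in Pim3-/- ESCs. The Pim3-/- values were the lower ones, but the log2 fold change of -0.37 (95% interval -0.77 to 0.03) did not pass, with an edgeR adjusted p of 0.129. With library totals it was 0.08. Without Pim3-/- replicate 1 it was -0.54.

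Measured against Max within the same library, the other members changed by different amounts. Mnt stood at 0.116 and 0.114 of Max per kb in WT and at 0.283 and 0.403 in Pim3-/- ESCs, a 2.93-fold increase of the ratio. The ratio of Mxd1 to Max was 0.0199 and 0.0220 in WT against 0.0484 and 0.0729 in Pim3-/- ESCs. Both repressors gained on their partner in each Pim3-/- library. For Mlx the ratio was 1.65 and 1.47 in WT and 0.880 and 0.709 in Pim3-/- ESCs. On merged exon lengths Mlx was thus above Max in WT and below it in Pim3-/- libraries. In CPM without a length Mlx was below Max in both groups, with 82.0 and 75.2 against 89.3 and 92.0 in WT. The ratio of Myc to Max overlapped between the groups, with 0.174 and 0.150 in WT and 0.152 and 0.158 in Pim3-/- ESCs.

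**Figure D3:**
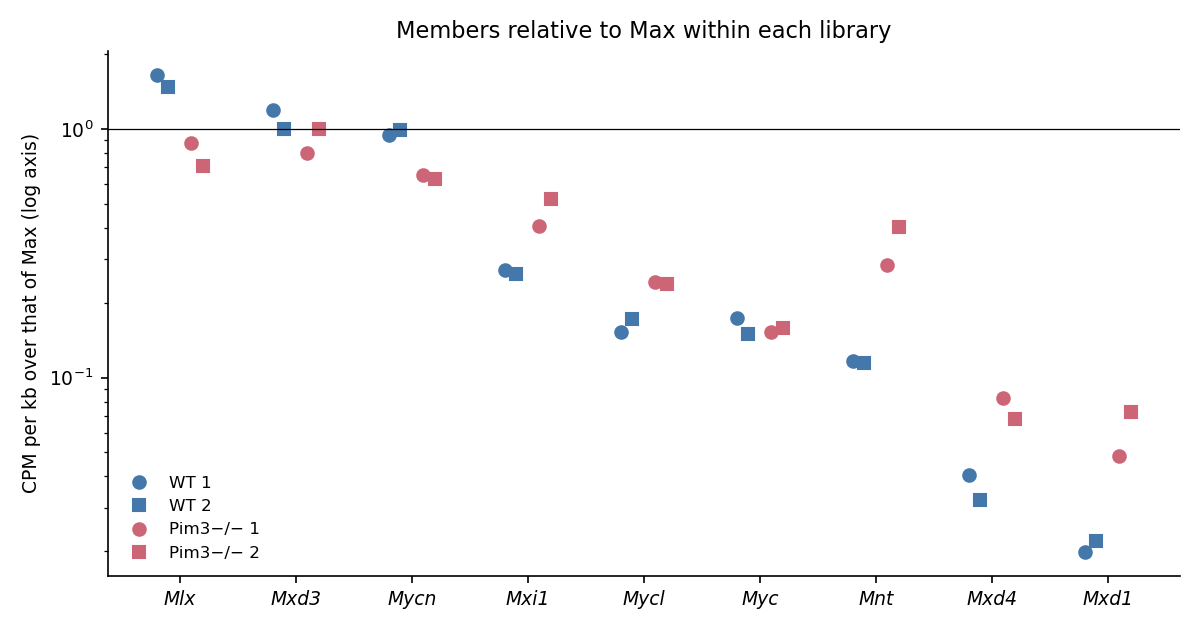
Level of each member over that of Max within the same library (CPM per kb, log axis), with blue for WT, red for Pim3-/-, circles for replicate 1 and squares for replicate 2; the line marks 1. Mnt, Mxd1, Mxd4, Mxi1 and Mycl lay higher relative to Max in both Pim3-/- libraries, Mlx and Mycn lower, and Myc overlapped. Mxd3 was at 1.19 and 0.996 in WT and at 0.797 and 0.995 in Pim3-/- libraries, lower but with nearly touching values.

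Among the antagonists, Mnt and Mxd1 rose. MNT is the broadly expressed repressor partner of MAX and MLX, and its gene lies on chromosome 11 from 74830920 to 74845725. Mnt had 13.4 and 13.5 CPM in WT and 27.9 and 32.8 CPM in Pim3-/- ESCs. Both Pim3-/- libraries were above both WT libraries, the log2 fold change being 1.18 ± 0.19 (SE) with an edgeR adjusted p of 0.00586. Mxd1, on chromosome 6 from 86647042 to 86669161, encodes a repressor best known for its rise during terminal differentiation. It had 3.49 and 3.97 CPM in WT and 7.30 and 9.07 CPM in Pim3-/- ESCs, again without overlap. The log2 fold change of Mxd1 was 1.13 ± 0.27 (SE) with an edgeR adjusted p of 0.0191. Both genes were higher under each scaling, and of the alternatives run only the omission of a WT library ended their calls. Without WT replicate 1 and WT replicate 2 the edgeR adjusted p-values were 0.0897 and 0.0771 for Mnt, and 0.223 and 0.149 for Mxd1.

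Mxd4 and Mxi1 had positive log2 fold changes and did not pass the test. Mxd4, on chromosome 5 from 34173883 to 34187720, had 8.55 and 6.97 CPM in WT and 15.0 and 10.1 CPM in Pim3-/- ESCs. Its log2 fold change was 0.70 (95% interval 0.06 to 1.33, edgeR adjusted p of 0.0834), and it passed with library totals, at 1.15 and 0.0125. Without Pim3-/- replicate 2 it was 0.94, and without Pim3-/- replicate 1 it was 0.37. Mxi1, also known as Mxd2, lies on chromosome 19 from 53310518 to 53375810. It had 45.8 and 45.5 CPM in WT and 59.3 and 62.7 CPM in Pim3-/- ESCs, a narrow spread in each group. The log2 fold change of Mxi1 was 0.42 (95% interval 0.06 to 0.78, edgeR adjusted p of 0.0719). It passed with library totals, at 0.87 and an edgeR adjusted p of 0.00627. With the filter on 10 counts in every library it passed as well, at 0.50 with an edgeR adjusted p of 0.0434. Without Pim3-/- replicate 1 or replicate 2 it was 0.44 or 0.36. Its 3 RefSeq start sites are not resolved by a count per gene. On the opposite strand Mxd4 shares 514 exonic bases with Gm42846, which had 44 to 106 counts, and Mxi1 shares 194 with Gm10197, which had 138 to 356 counts.

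Mxd3 was the exception among the antagonists. It encodes the MXD protein found in proliferating cells in S phase, and lies on chromosome 13 from 55325168 to 55329823. Mxd3 had 70.0 and 60.3 CPM in WT and 40.3 and 41.5 CPM in Pim3-/- ESCs, which gave -0.67 ± 0.16 (SE) on the log2 scale and an edgeR adjusted p of 0.0195. Both Pim3-/- values were below both WT values, whereas those of Mxd1, Mxd4, Mxi1 and Mnt were above. With library totals Mxd3 was at -0.22 with an edgeR adjusted p of 0.329, and without WT replicate 1 or WT replicate 2 its edgeR adjusted p was 0.244 or 0.0941. It shares 105 exonic bases with Prelid1 on the opposite strand, a gene with 313 to 464 CPM and a log2 fold change of -0.46 that did not pass (edgeR adjusted p of 0.0875).

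Within the Mxd genes and Mxi1, Mxd3 made up 78.3% and 76.0% of the summed CPM per kb in WT and 59.7% and 60.0% in Pim3-/- ESCs. The share of Mxi1 went from 17.8% and 19.9% to 30.5% and 31.5%. Mxd1 went from 1.31% and 1.68% to 3.62% and 4.39%. The summed level of the 4 genes and Mnt was 40.7 and 36.4 CPM per kb in WT and 34.5 and 36.3 CPM per kb in Pim3-/- ESCs, a log2 difference of -0.12 between the means that was less than the distance between the WT libraries. The ratio of this sum to that of the Myc genes was 1.28 and 1.08 in WT and 1.55 and 2.01 in Pim3-/- ESCs. This was a 1.49-fold increase. Without Mxd3, the antagonist that fell, the ratio was 0.351 and 0.326 in WT against 0.784 and 1.04 in Pim3-/- ESCs, a 2.67-fold increase. The genes left all had higher values in both Pim3-/- libraries, so the larger increase follows from leaving Mxd3 out.

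**Figure D4:**
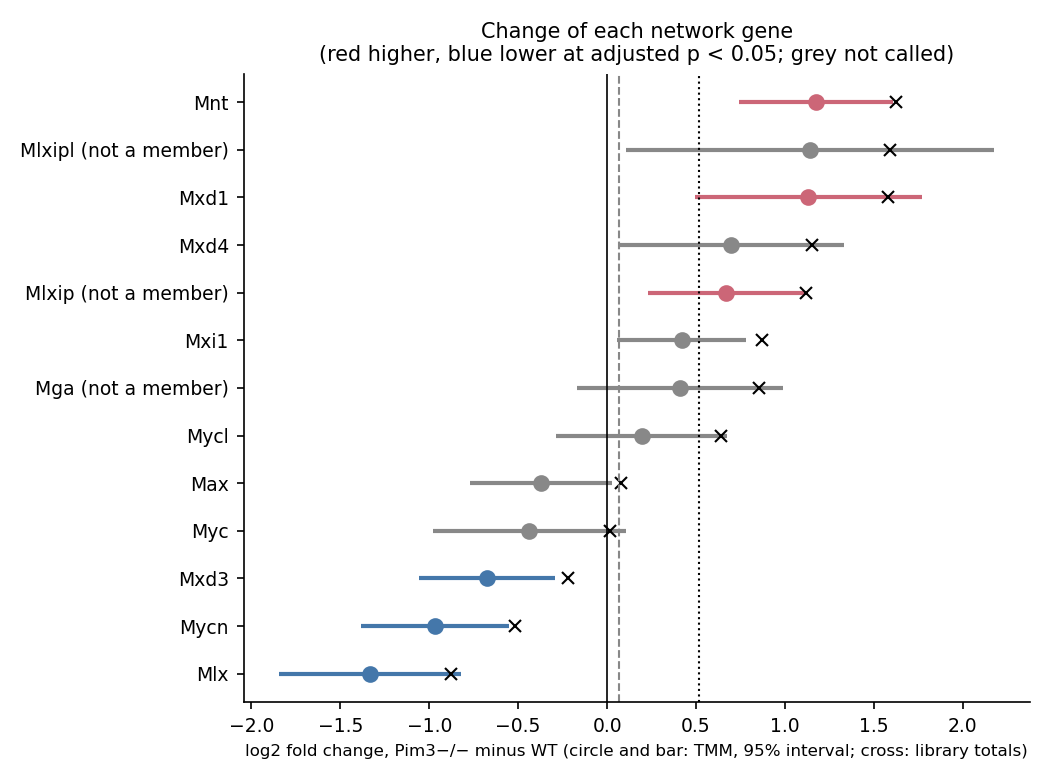
Log2 fold change of each network gene in Pim3-/- against WT ESCs, with circles and bars for the edgeR estimate and its 95% interval under TMM scaling, and crosses for library totals (red called higher, blue called lower, grey not called). The dashed line is the median of all tested genes with TMM (0.07) and the dotted line that with library totals (0.52); Mlx stayed left of both and Mnt and Mxd1 right of both.

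Mlx had the lowest log2 fold change of the 10 members. The gene lies on chromosome 11 from 101087277 to 101092207 and encodes the dimer partner of the Mondo factors. Mlx stood at 82.0 and 75.2 CPM in WT and 37.5 and 24.9 CPM in Pim3-/- ESCs. Both Pim3-/- libraries were far below WT and also apart from each other. Mlx fell by 1.33 ± 0.22 (SE) on the log2 scale, to 0.397 of the WT level, with an edgeR adjusted p of 0.00657. A lower log2 fold change was found for 3.41% of tested genes. The call of Mlx held in all 10 alternatives, with log2 fold changes from -1.67 to -0.88 and edgeR or DESeq2 adjusted p-values of at most 0.0419. Mlx shares 385 of its 1999 exonic bases with Psmc3ip on the opposite strand, which had 77.9 and 62.1 CPM in WT and 35.6 and 19.3 CPM in Pim3-/- ESCs (log2 fold change -1.35, edgeR adjusted p of 0.0129). Since the use of strand in counting is not given in the sources used here, reads of the shared stretch cannot be assigned to either gene.

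The genes of the partners of MLX did not have lower levels in Pim3-/- ESCs. Mlxip rose from 23.6 and 28.3 CPM to 45.6 and 37.0 CPM, by 0.67 ± 0.19 (SE) on the log2 scale with an edgeR adjusted p of 0.0310. Without WT replicate 1 or WT replicate 2 that p was 0.389 or 0.184. The ratio of Mlxip to Mlx per kb was 0.0690 and 0.0903 in WT against 0.292 and 0.356 in Pim3-/- ESCs. Mlxipl was low, with 2.76 and 2.51 CPM in WT and 8.27 and 3.37 CPM in Pim3-/- ESCs, and its log2 fold change of 1.14 (95% interval 0.11 to 2.17) did not pass, with an edgeR adjusted p of 0.0818. It rested on Pim3-/- replicate 1, without which it was 0.34, and it was 1.63 without Pim3-/- replicate 2. With library totals it passed, at 1.59 and an edgeR adjusted p of 0.0207. Mga encodes the large partner of MAX in the Polycomb complex PRC1.6, which keeps germline genes silent in ESCs. Mga had 47.6 and 64.2 CPM in WT and 58.3 and 90.2 CPM in Pim3-/- ESCs, which overlapped, with a log2 fold change of 0.41 (95% interval -0.17 to 0.99, edgeR adjusted p of 0.232). It passed with library totals, at 0.85 and an edgeR adjusted p of 0.0309. Without Pim3-/- replicate 1 it was 0.67, and without Pim3-/- replicate 2 it was 0.04.

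Of 15 listed target genes of the MLX dimers, 3 were called higher, beside 17.6% of all tested genes, and none lower, with a median log2 fold change of 0.10. Me1 (malic enzyme), Scd2 (a fatty acid desaturase) and Elovl6 (a fatty acid elongase) rose, at log2 fold changes of 1.82, 0.66 and 0.60 with edgeR adjusted p-values of 0.00649, 0.0318 and 0.0257. Without WT replicate 1 or WT replicate 2 only Me1 was called, and without Pim3-/- replicate 2 its value was 1.26. Txnip and Arrdc4 encode the arrestin-like proteins that are the best known glucose-responsive targets of MondoA and MLX. Counts of Txnip were 15733 and 19987 for WT, 17401 for Pim3-/- replicate 1 and 746 for Pim3-/- replicate 2. Arrdc4 followed with 1419, 1609, 1206 and 140 counts in the same order. In CPM, Txnip was 22.5-fold and Arrdc4 8.32-fold lower in Pim3-/- replicate 2 than in replicate 1. Mlx was also lowest in Pim3-/- replicate 2, as were Mycn, Max and Myc, but not the other members. Of all tested genes, 99.99% had a smaller ratio of replicate 1 to replicate 2 than Txnip and 99.93% a smaller one than Arrdc4. For Mlx this share was 88.42%. Whether the level of Mlx had a part in the low values of Txnip and Arrdc4 was not tested. Neither gene passed, at log2 fold changes of -1.32 (95% interval -3.71 to 1.06) and -1.52 (95% interval -3.23 to 0.19) and edgeR adjusted p-values of 0.341 and 0.144. Without Pim3-/- replicate 2 the values were -0.40 and -0.70. Without Pim3-/- replicate 1 they were -4.90 and -3.76, and the median of the list was -0.26.

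**Figure D5:**
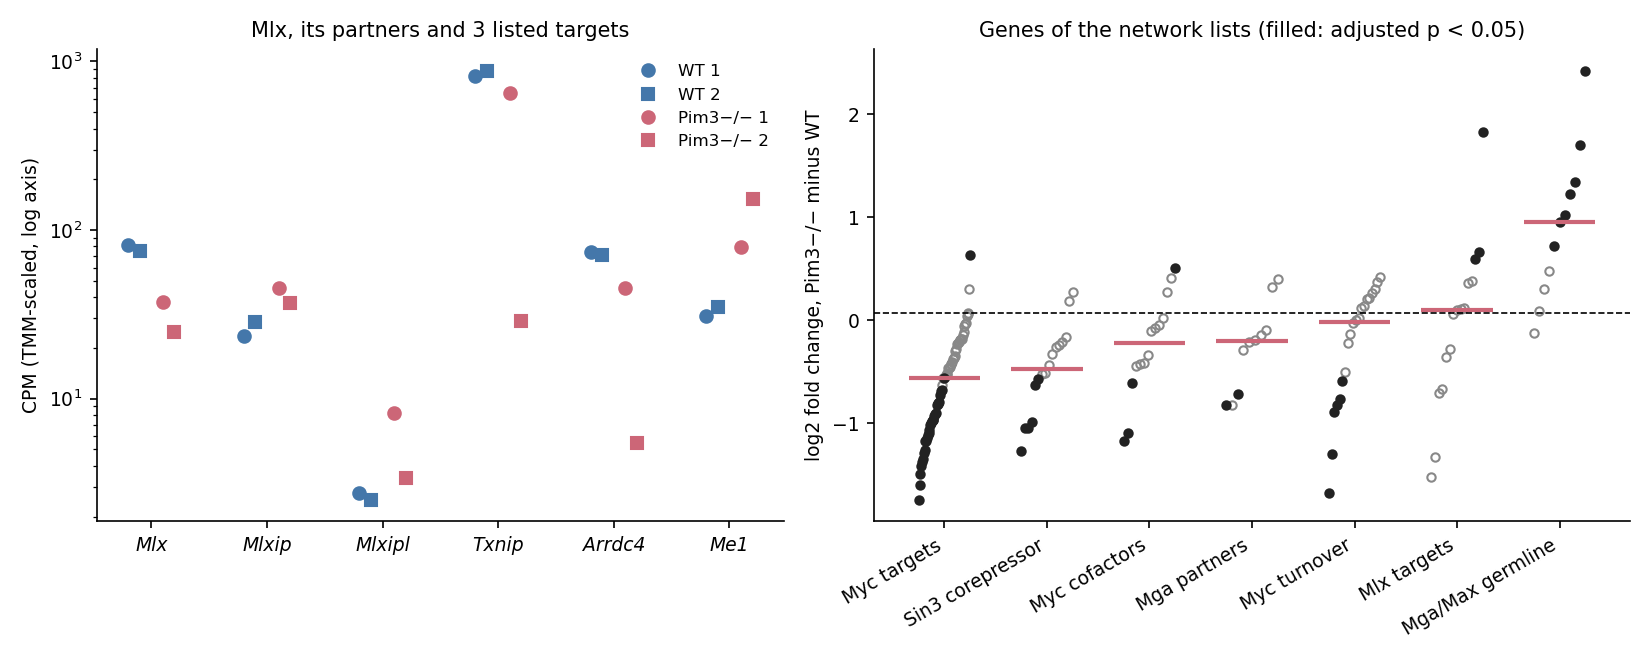
Left, CPM (TMM-scaled, log axis) of Mlx, Mlxip, Mlxipl and the listed targets Txnip, Arrdc4 and Me1 in the 4 libraries, where Pim3-/- replicate 2 lay far below the other 3 libraries for Txnip and Arrdc4. Right, log2 fold change of each tested gene of 7 lists, filled where the adjusted p was under 0.05, with red lines for list medians (-0.56 for Myc targets, 0.95 for germline targets) and a dashed line for the median of all genes (0.07).

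A list of 64 known target genes of MYC, mostly of ribosome production, held more lowered than raised genes. This list and the others were written with earlier results of these data known, and their shares were not tested. Of the 64, 30 were called lower (46.9%, against 16.2% of all genes) and 1 higher, and 59 had log2 fold changes below 0, with a median of -0.56 against 0.07 for all tested genes. Ncl and Npm1, which encode nucleolin and nucleophosmin of the nucleolus, fell by 0.93 and 1.12 on the log2 scale, with edgeR adjusted p-values of 0.0139 and 0.0152. The lowest log2 fold changes among the calls were those of Nop16 (-1.74), a nucleolar protein gene, Dctpp1 (-1.60), a dCTP pyrophosphatase gene, and Nip7 (-1.49), a ribosome assembly gene. Srm, the spermidine synthase gene, fell by 1.34. Odc1, which encodes the enzyme before it in polyamine synthesis, was at -0.46 (edgeR adjusted p of 0.144) and at -0.70 without Pim3-/- replicate 1. Cad, for the first steps of pyrimidine synthesis, was at 0.07 (edgeR adjusted p of 0.843). Its values were -0.09 without WT replicate 1, -0.32 without Pim3-/- replicate 1 and 0.35 without Pim3-/- replicate 2. Sord, the sorbitol dehydrogenase gene, was the gene called higher, at 0.64 with an edgeR adjusted p of 0.0431, a call that did not hold with DESeq2 size factors (0.0545) or without a WT library.

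The number of lowered Myc targets depended on the scaling and on single libraries. With library totals 12 were called lower and 2 higher, and the median of the list was -0.11 against 0.52 for all genes, a distance of -0.62 as compared with -0.63 under TMM. Fewer were called lower without either WT library and more without either Pim3-/- library, as was so for all tested genes. Without WT replicate 1, WT replicate 2, Pim3-/- replicate 1 and Pim3-/- replicate 2 the list medians were -0.59, -0.68, -0.83 and -0.37. Among the list genes with a RefSeq promoter, 17 held a CACGTG and 38 did not. Of these 17, 11 were lower and the median was -0.80. Of the 38 without it, 14 were lower and the median was -0.46. Over all tested genes, 19.9% of 1377 genes with a CACGTG and 17.2% of 10665 genes without it were called lower, with medians of 0.00 and 0.06.

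Corepressor, cofactor and turnover genes of the network were read as 3 lists, beside 16.2% of all tested genes called lower and 17.6% higher. Of 16 genes of the SIN3 complex, 6 were lower (37.5%) and none higher, with a median log2 fold change of -0.47 that was -0.02 with library totals. Brms1 was at -1.27, Sap30 at -1.04 and Sin3b, the scaffold gene, at -1.04, with edgeR adjusted p-values of 0.00500, 0.00699 and 0.00889. Of 14 cofactor genes of MYC, 3 were lower (21.4%, near the share of all genes) and 1 higher, with a median of -0.22. With library totals 2 were lower and 3 higher, with a median of 0.23. Ruvbl1 and Actl6a, subunit genes of the TIP60 and INO80 remodelling complexes, were at -1.17 and -1.10, and Cdk9, the kinase gene of the elongation factor P-TEFb, at -0.61. Ep400, the large remodelling ATPase gene, was at 0.51 with an edgeR adjusted p of 0.0433, a call lost with DESeq2 size factors (0.0568), with no filter (0.0911) and without WT replicate 1 (0.457) or WT replicate 2 (0.379). Of 20 genes for the turnover of MYC, 6 were lower and none higher, with a median of -0.01. Among the called genes of this list were Set (-1.68), which encodes an inhibitor of the phosphatase PP2A, and Aurka (-1.29), a mitotic kinase gene whose product stabilises MYCN. With library totals 7 genes of this list were called higher and 2 lower, beside 6594 higher and 1094 lower of 18444 tested genes. Without either WT library the numbers called lower in these 3 lists were 0 to 3.

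Of 10 genes for the partners of MGA in PRC1.6, 2 were lower, Cbx3 at -0.83 and Cbx1 at -0.71, both heterochromatin protein genes, with edgeR adjusted p-values of 0.0145 and 0.0215, and the median was -0.20. With library totals, or without either WT library, neither passed, and with library totals 2 other genes of the list were called higher. Of 12 germline genes known as targets of MGA and MAX in ESCs, 11 were tested, 7 were higher (63.6%, against 17.6% of all genes) and none lower, and the median log2 fold change was 0.95. Mael, of the piRNA pathway, rose from 288 and 315 counts to 975 and 1484 counts, by 1.70 on the log2 scale with an edgeR adjusted p of 0.00500. Taf7l, which encodes a germ cell form of a TFIID subunit, had 68 counts in both WT libraries, and 176 and 737 counts in the Pim3-/- libraries (log2 fold change 2.42, edgeR adjusted p of 0.0219), and without Pim3-/- replicate 2 its log2 fold change was 0.996. Tex101, a gene for a germ cell surface protein, was at 1.34 with an edgeR adjusted p of 0.0367. Without Pim3-/- replicate 1 Tex101 did not pass (0.0516). Without WT replicate 1 or WT replicate 2 Mael alone of the list was called, with list medians of 0.91 and 0.82.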

How the data were processed

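The mRNA-seq libraries from 2 WT cultures were compared with those from 2 Pim3-/- clones. The authors deposited raw counts per gene without normalization. Their methods name Cutadapt, Hisat2, mm10 and Ensembl genes, whereas the submitters' processing notes list Trim Galore, STAR, featureCounts and GRCm38. Which of these made the counts, the strand setting and the treatment of reads with several locations are not given in the sources used here.

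Low counts were removed with filterByExpr of edgeR 4.0.16 (minimum count 10, total 15), which left 18444 of 31418 genes with a count. Groups were compared over all these genes with edgeR's quasi-likelihood test under TMM scaling, with Benjamini-Hochberg adjustment and a threshold of 0.05, in R 4.3.3. DESeq2 1.42.0 served for alternatives. Exon lengths came from GENCODE M21 (GRCm38). The 2 libraries per group limit the precision, and p-values measure the spread between these cultures and clones. On simulated counts with 2 libraries per group, 95.5% of 4-fold, 41.8% of 2-fold and 2.99% of 1.5-fold changes were recovered. In that simulation 9.71% of calls were false. Few genes were changed in it, whereas 33.8% of tested genes were called in the data, so these rates do not carry over to them.

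Named genes are the 10 members, Mga, Mlxip, Mlxipl, Pim3, up to 3 called genes in each direction per list (minimum 10 counts in each library of the group with more), and Ncl, Npm1, Odc1, Cad, Srm, Txnip and Arrdc4. A gene that this rule names is not reported here. Psmc3ip, Prelid1, Gm42846, Gm10197, Foxa2, Zic1 and Lum were added after their values were seen. Members and lists were chosen with earlier results of these data known, and lists were written from general knowledge. Alternatives were other scalings and filters, DESeq2's Wald test, a replicate block, other gene lengths and the omission of each library, where a lone library was assumed to vary like the other group. The TE counts were not used here.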

Additional observations from a re-analysis of the deposited data

How the results depend on the processing

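Of the alternatives run, scaling by library totals and the omission of a WT library changed the most calls. With library totals 5 members were called higher and 1 lower, beside 6594 higher and 1094 lower of 18444 tested genes. Myc (0.016), Max (0.077) and Pim3 (0.19) changed sign on the log2 scale, since this scaling puts the median of all genes at 0.52. The genes called higher under it were 3 of the other network genes, 3 of the Myc cofactors, 1 of the Sin3 genes, 2 of the Mga partners, 7 of the Myc turnover genes, 2 of the Myc targets, 5 of the Mlx targets and 9 of the germline targets. The genes called lower were 2 of the Myc cofactors, 3 of the Sin3 genes, 0 of the Mga partners, 2 of the turnover genes and 12 of the Myc targets. With DESeq2 size factors, with no filter and with the Wald test of DESeq2, 0 Myc cofactors and 0 Myc targets were called higher, and with 10 counts required in every library 1 turnover gene was. Ep400 and Sord, the genes so lost, had adjusted p-values just under the threshold. With the replicate number as a block, 0 cofactors were called higher and 3 Mlx targets lower, among them Txnip (-2.61, edgeR adjusted p of 0.0331) and Arrdc4 (-2.13, 0.00629), and no member changed its call. The numbers were not taken to pair the samples, because the deviations of same-numbered libraries correlated at 0.0306. When each library was left out in turn, 0 to 4 members were called higher and 1 to 5 lower. Over the same omissions, the number called higher was 0 to 2 for the other network genes, 0 to 3 for Myc cofactors, 0 to 1 for Sin3 genes, 0 to 1 for Mga partners, 0 to 4 for turnover genes, 0 to 4 for Myc targets, 1 to 4 for Mlx targets and 1 to 8 for germline targets. The number called lower was 0 to 7 for cofactors, 0 to 10 for Sin3 genes, 0 to 5 for Mga partners, 2 to 8 for turnover genes, 3 to 50 for Myc targets, 0 to 6 for Mlx targets and 0 to 1 for germline targets. Cad changed sign without WT replicate 1 (-0.09) and without Pim3-/- replicate 1 (-0.32), and over these omissions its highest value was 0.35. Omitting a library leaves a lone one in its group, so the spread comes from the other group. Calls over all tested genes fell without either WT library and rose without either Pim3-/- library. The calls of members and lists under omission must be read beside that. The share of Mycn and the ratio of Mxd and Mnt genes to Myc genes kept their direction with other gene lengths. They then moved by less than the spread between replicates. For the ratio of Mlx to Max, other lengths test nothing about the change between groups. They multiply the ratio by the same factor in every library, which moves its level only. Scaling cannot change any of these measures, and leaving out 1 of 2 libraries cannot move a mean beyond that spread. Those alternatives test nothing here. With 2 libraries per group, a member without a call may still differ between the groups. The simulation, in which few genes were changed, does not say by how much.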
